A study of Mus musculus with 11 samples.

Results

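The regions described here are 630 ATAC-seq peaks of naive CD4 T cells. They were already accessible in the cells with the weakest T cell receptor reporter. They were higher in the cells with the strongest reporter than in cells with an intermediate one. ATAC-seq reads out open chromatin through the cuts of the transposase Tn5. The members were chosen by measured values. The rule asked for a mean of at least 2 rppm (the authors' unit, reads in the peak scaled to a common library total) in population A, a log2 ratio of (D + 1) to (C + 1) of at least 0.6, and a log2 ratio of (C + 1) to (A + 1) below 0.3. It took 630 of 45508 listed peaks, and 630 of the 44323 that met the first condition. Population B did not enter the rule. The rule set no lower limit on C over A and did not compare D with A. C lay within 0.3 of A in either direction at 579 members, and at the others it was lower, by up to 0.77. The log2 ratio of (D + 1) to (A + 1) ran from -0.14 to 1.97 over the members, with a median of 0.81.

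All 11 libraries came from 3 untreated C57/BL6 mice that carry the transgene Tg(Nr4a1-EGFP)GY139Gsat and the targeted Foxp3tm1Flv allele. The transgene makes green fluorescent protein from Nr4a1 (Nur77) regulatory sequence, and Foxp3tm1Flv tags Foxp3-expressing cells red. Each library held 10000 sorted CD4 T cells of spleen and lymph nodes, negative for the red reporter and low for CD44. Population A was low for the green reporter and positive for Ly6C (mice 1 and 3), B intermediate and Ly6C positive (mice 1, 2 and 3), C intermediate and Ly6C negative (mice 1, 2 and 3), and D high and Ly6C negative (mice 1, 2 and 3). The labels give no age for the mice. D and C thus share Ly6C status and differ in the reporter, whereas D and A differ in both. A higher value can mean more cells with the site open or a more open site in each cell, and bulk libraries cannot tell these apart.

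Naive T cells receive weak T cell receptor signals from self-peptides all the time, and Nr4a1 is switched on by such signals in proportion to their strength. Regulatory DNA that is already accessible usually holds bound transcription factors, and further factors, such as AP-1 dimers, NFAT or Nr4a proteins after receptor signalling, can bind there and widen the accessible state. Most such sites that respond to signals in lymphocytes are enhancers, which lie in introns and between genes.

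Sequence could be read at the members that cover a start site. Of the 630 members, 24 held a whole RefSeq promoter window (GRCm38.p6, the assembly also named mm10; 250 bases before a start to 50 after it), with 26 windows of 25 genes. Some of these windows overlap each other. The AP-1 motif TGANTCA, searched on both strands, stood in 5 of the 26 windows (19.2%), against 4.16% of 11456 windows in listed peaks with at least 2 rppm in A and 7.81% of all 32817 windows. The NR4A response element AAAGGTCA stood in 2 (7.69%, against 0.829% and 1.51%). The E-box CAGGTG stood in 8 (30.8%, against 17.7% and 20.2%), and the E-box CAGCTG in 3 (11.5%, against 14% and 16.3%). The ETS motif CCGGAAGT, frequent at strong promoters, was in 0 of the 26 against 9.43% of windows in listed peaks and 3.89% of all. The other 14 motifs, held by 0.0349% to 4.98% of windows in listed peaks and 0.0548% to 11.2% of all windows, stood in 0 to 2 of the 26. Those in 0 were the NFAT motif GGAAAAT (2.81% and 4.82%), the EGR motif GCGTGGGCG, the ETS motif ACAGGAAGT, the RUNX motif TGTGGTTT, the TCF motif CTTTGATC, the GATA motif AGATAA, an NF-kB motif, and the composite motifs of NFAT with AP-1 and of BATF with IRF, both of which include the AP-1 letters. Those in 1 or 2 were the short TCF motif CTTTGAA, the KLF motif GGGTGTGG, the FOXO motif TGTTTAC, and the IRF and CTCF motifs. These are letter matches in few windows, and the great majority of members, away from start sites, were not searched.

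The 4 windows shown are those of named genes with the largest rise from C to D among those with an AP-1 match, and that of Tcf12, which holds an NR4A element. Each is written 5′ to 3′ on the strand of its gene, with the AP-1 or NR4A letters in capitals. Tnfrsf8 (chr4:145315115-145315414, minus strand) encodes CD30, a TNF receptor family member of activated lymphocytes. Cgref1 (chr5:30945431-30945730, minus strand) encodes a secreted calcium-binding growth regulator, and Emp1 (chr6:135362681-135362980, plus strand) a membrane protein of the PMP22 family. Tcf12 (chr9:71896047-71896346, minus strand) encodes HEB, an E protein that binds E-boxes in developing T cells. Emp1 has 2 AP-1 matches, Tnfrsf8 and Cgref1 have 1 each, and Tcf12 has 1 NR4A match and no AP-1 match. The windows of Tnfrsf8 and Cgref1 also hold CAGGTG.

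Tnfrsf8: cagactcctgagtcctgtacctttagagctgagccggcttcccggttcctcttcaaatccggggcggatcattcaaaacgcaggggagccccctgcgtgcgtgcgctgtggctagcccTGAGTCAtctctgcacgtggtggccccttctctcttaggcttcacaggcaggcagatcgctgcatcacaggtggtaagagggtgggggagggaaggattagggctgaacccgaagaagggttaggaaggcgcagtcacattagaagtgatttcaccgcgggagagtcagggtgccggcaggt
Cgref1: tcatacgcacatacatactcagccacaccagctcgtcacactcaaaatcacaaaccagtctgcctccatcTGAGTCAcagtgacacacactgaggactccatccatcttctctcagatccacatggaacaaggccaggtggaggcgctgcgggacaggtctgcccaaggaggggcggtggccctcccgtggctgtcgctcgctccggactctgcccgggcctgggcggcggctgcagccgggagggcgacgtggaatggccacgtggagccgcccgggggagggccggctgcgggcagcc
Emp1: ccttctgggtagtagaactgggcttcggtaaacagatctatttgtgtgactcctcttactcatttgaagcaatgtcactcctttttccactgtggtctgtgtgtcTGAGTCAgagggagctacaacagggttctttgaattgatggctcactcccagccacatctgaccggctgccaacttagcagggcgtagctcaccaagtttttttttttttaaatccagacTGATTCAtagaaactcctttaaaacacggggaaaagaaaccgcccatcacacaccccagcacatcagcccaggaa
Tcf12: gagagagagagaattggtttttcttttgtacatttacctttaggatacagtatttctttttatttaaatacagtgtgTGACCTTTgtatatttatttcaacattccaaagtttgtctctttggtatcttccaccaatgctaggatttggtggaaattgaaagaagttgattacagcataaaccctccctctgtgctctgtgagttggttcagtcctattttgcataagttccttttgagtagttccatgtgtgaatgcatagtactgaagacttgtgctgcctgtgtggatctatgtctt

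The peak over the Tnfrsf8 window stood at 2.17 and 2.11 rppm in A, 2.45, 2.52 and 2.31 in B, 1.77, 2.16 and 3.04 in C, and 9.24, 6.98 and 6.81 in D (mice in rising order of number, here and below). The D libraries were separate from all 8 others, which were close together. Mean levels in C and D were 2.92 and 7.65 rppm at the Cgref1 peak, 6.83 and 12.9 at Emp1, and 7.03 and 13.5 at Tcf12. In B, which the rule did not use, the same peaks had means of 3.31, 6.18 and 7.76 rppm, near their values in C.

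Some facts of the libraries bear on these peaks. The totals by which the authors scaled the reads, recovered from the values, ran from 2597176 (D of mouse 1) to 36859228 (D of mouse 3), and mouse 3 gave the deepest library of each population. A peak at 10 rppm rested on 26 to 369 reads, counting error only. The share of the total inside listed peaks was 92.5% to 93.7% in D and 93.5% to 94.7% in the other libraries, and its part in the rise was not tested. The B cell markers Ms4a1, Pax5 and Cd22 had no listed peak, and Lyz2 and Csf1r of 8 myeloid and Ncr1 of 8 CD8 T and NK cell markers had none either. All 8 CD4 T cell markers had peaks, and their 51 peaks summed to 918 to 948 rppm in A and 913 to 992 in D. The 50 peaks of 8 regulatory T cell markers, 3 of them members, summed to 719 to 722 rppm in D, against 580 to 606 in C, 558 to 571 in B and 549 to 567 in A. The part of such cells in the rise of the members was not tested. B cell marker peaks summed to 49.8 to 64.7 rppm in C and 42.7 to 59.3 in D, myeloid ones to 112 to 126 and 82.8 to 108, and CD8 T and NK ones to 535 to 576 and 512 to 597.

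Members had low to moderate accessibility before the rise. Their median level was 4.24 and 4.23 rppm in the A libraries, 4.34, 4.46 and 4.53 in B, and 3.93, 4.22 and 4.68 in C. In D it was 8.86, 7.999 and 8.41 rppm. All D medians were thus above the others, and the C medians spanned those of A and B, which were close to each other, with each B median above both A medians. The other peaks with at least 2 rppm in A were higher throughout, with a median of population means of 10.2 rppm in A and 10.4 in D.

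**Figure D1:**
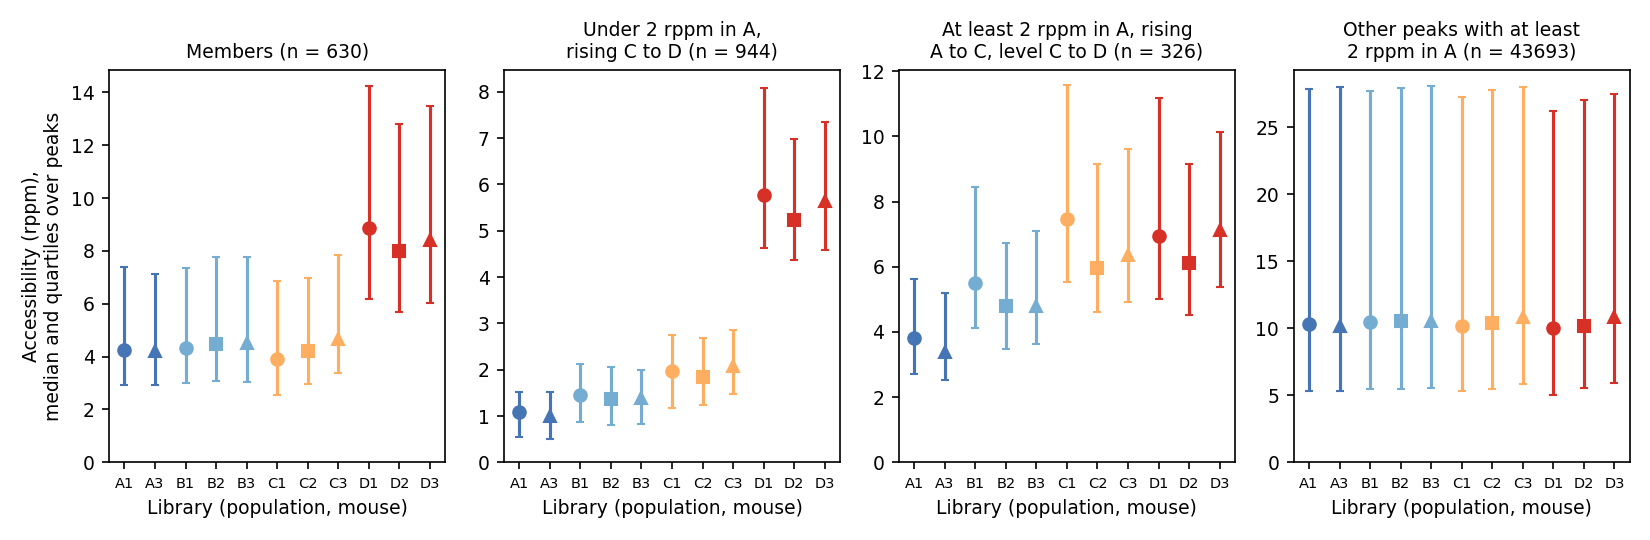
Accessibility in rppm (median as point, quartiles as bar, over peaks) in each library, for the members, for 944 peaks under 2 rppm in A that rose from C to D, for 326 peaks that rose from A to C and not further, and for the other peaks with at least 2 rppm in A. Letters give the population and digits the mouse. In the members the 3 D libraries sit at 7.999 to 8.86 rppm and the other 8 at 3.93 to 4.68.

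The rise from C to D had a median of 0.74 on the log2 scale of rppm + 1, with quartiles of 0.65 and 0.89 and a maximum of 2.23. By the rule no member lay below 0.6. The largest rise was at an intron peak assigned to Map3k20 but 102 kb upstream of its start (chr2:72183394-72184311). Map3k20 encodes a stress-activated kinase of the MAP kinase pathways. The peak stood at 3.70 and 2.52 rppm in A, 3.01, 3.43 and 2.39 in B, 1.77, 1.75 and 1.33 in C and 10.4, 11.6 and 11.8 in D. C was the lowest population there. A peak 29.3 kb from the start of Prkcq, which encodes the kinase PKC-theta of T cell receptor signalling (chr2:11142713-11143389), stood at 2.39 and 2.31 rppm in A, 1.56, 2.52 and 2.04 in B, 1.77, 3.29 and 2.04 in C and 10.4, 14.1 and 10.3 in D. At this peak A, B and C overlapped and D was far above them.

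The next rises were at an intron peak assigned to the microRNA gene Mir6406, 20.9 kb from its start (chr11:68199774-68200276; 3.09 rppm in C, 12.8 in D), and at a predicted gene near Myb, given with its run further on. After these came intron 4 of Foxp1 (2.36 rppm in A, 11.3 in D), a forkhead factor of T cell quiescence. A peak 5.71 kb from Prps1l1 had a much higher starting level, with 16.9 rppm in A, 21.4 in B, 14.7 in C and 45.7 in D. Intron 1 of Kat2b, a histone acetyltransferase, went from 2.35 rppm in C to 8.86 in D, and intron 7 of Slc6a19, an amino acid transporter, from 2.84 to 9.95. Next came a peak near Hbs1l (3.46 to 11.6 rppm), a translation factor, and intron 1 of Arel1 (4.74 to 14.99), a ubiquitin ligase. They were followed by intron 2 of Zeb1 (1.82 to 6.67), a zinc finger repressor. After it came an intron peak 50.4 kb upstream of the start of Txk (2.20 to 7.65), a Tec family kinase of T cells. At Txk the D libraries were spread widely, at 12.3, 4.36 and 6.27 rppm.

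limma, fitted on all 45508 peaks, gives an SE and a p-value for these differences. The same libraries chose the members by D over C, so both are descriptions for that contrast, here and below. In D against C, which the rule used, it called 468 of the 630 members (74.3%) higher at an adjusted p below 0.05, where 4.51% of all peaks were called higher. Nothing is read from that count, nor from calls in D against C at single members, runs or gene lists below. Those stand beside the 74.3% of all members. The other members met the rule without a call. In D against A, fixed by the same values, it called 445 members higher, against a background of 8.7%. The rise at Map3k20 was 2.23 (SE 0.17, limma adjusted p = 7.58e-06) and that at Prkcq 1.92 (SE 0.20, limma adjusted p = 5.99e-05). In C against A, which the rule also used, it called 0 members, against 0.752% of all peaks called higher, and 11 members at an unadjusted p below 0.05, of which 3 were higher and 8 lower. edgeR and DESeq2 also called 0 members there, with 13 and 7 at an unadjusted p below 0.05, and called 611 and 467 of all 45508 peaks. The rule kept out peaks with a clear rise from A to C, so nothing is read from these counts either. Without mouse 3, which leaves 7 libraries and 1 of A, the calls in D against C fell to 36 members and those in D against A to 32. Without mouse 2 the D against C count was 129. Over all peaks the calls in D against C were 2730, and 404 and 900 without these mice.

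The smallest and largest starting levels had different shares of members. Of 1522 peaks with 2 to 3 rppm in A, 166 (10.9%) were members, and of 13999 peaks with 20 rppm or more, 18 (0.129%) were. The shares between were 2.49% of 8623 peaks from 3 to 5 rppm, 1.38% of 11932 from 5 to 10 and 0.800% of 8247 from 10 to 20. Over all peaks with 2 to 3 rppm in A the median D minus C was 0.32 (log2), whereas in the 4 higher classes it lay between -0.06 and 0.01. The authors' table lists detected peaks, and a peak low in A may be listed for its level in another population. Under 1 rppm lay 478 and 467 listed peaks in the A libraries, against 199, 17 and 6 in D. The part of this in the shares and medians by class was not tested. Over peaks more than 1 kb from a start site alone, the shares were 11.2% in the lowest and 0.331% in the highest class. The median rise of members differed little between classes, from 0.79 at 2 to 3 rppm to 0.68 at 20 rppm or more, and in rppm it was 2.59 and 17.3.

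The members with the highest level in A show what a strong starting site looked like. Intron 2 of Camk2d, a calcium-dependent kinase (chr3:126659927-126661497), stood at 31.8 and 33.9 rppm in A, 31.4, 33.7 and 33.0 in B, 26.1, 26.0 and 27.8 in C and 46.6, 46.4 and 46.8 in D (log2 D minus C 0.78, SE 0.09, limma adjusted p = 0.000111). Libraries of 1 population lay close together, and C was below A and B. The promoter of Myb, a transcription factor of progenitor and stem-like T cells (chr10:21160625-21161852), stood at 27.4 and 32.2 rppm in A, 22.3, 25.9 and 26.4 in B, 19.2, 28.5 and 28.2 in C and 37.7, 47.0 and 49.5 in D. Near Zc3h12d, an RNase relative of Regnase-1, the values were 41.5 in A, 34.9 in C and 53.6 in D.

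The other 2 of these 5, near Fgf14 and Mrgprd, rest on 1 library. The Fgf14 peak (chr14:124801449-124802290) stood at 49.4 and 38.2 rppm in A, 34.5, 41.5 and 49.1 in B, 43.0, 8.64 and 40.7 in C and 70.1, 47.7 and 39.1 in D. The C library of mouse 2 was far below all others, and D overlapped A and B. The Mrgprd peak had the same shape, with 6.27 rppm in C of mouse 2 and 33.0 and 32.8 in the other C libraries. limma called neither (adjusted p = 0.251 and adjusted p = 0.228).

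**Figure D2:**
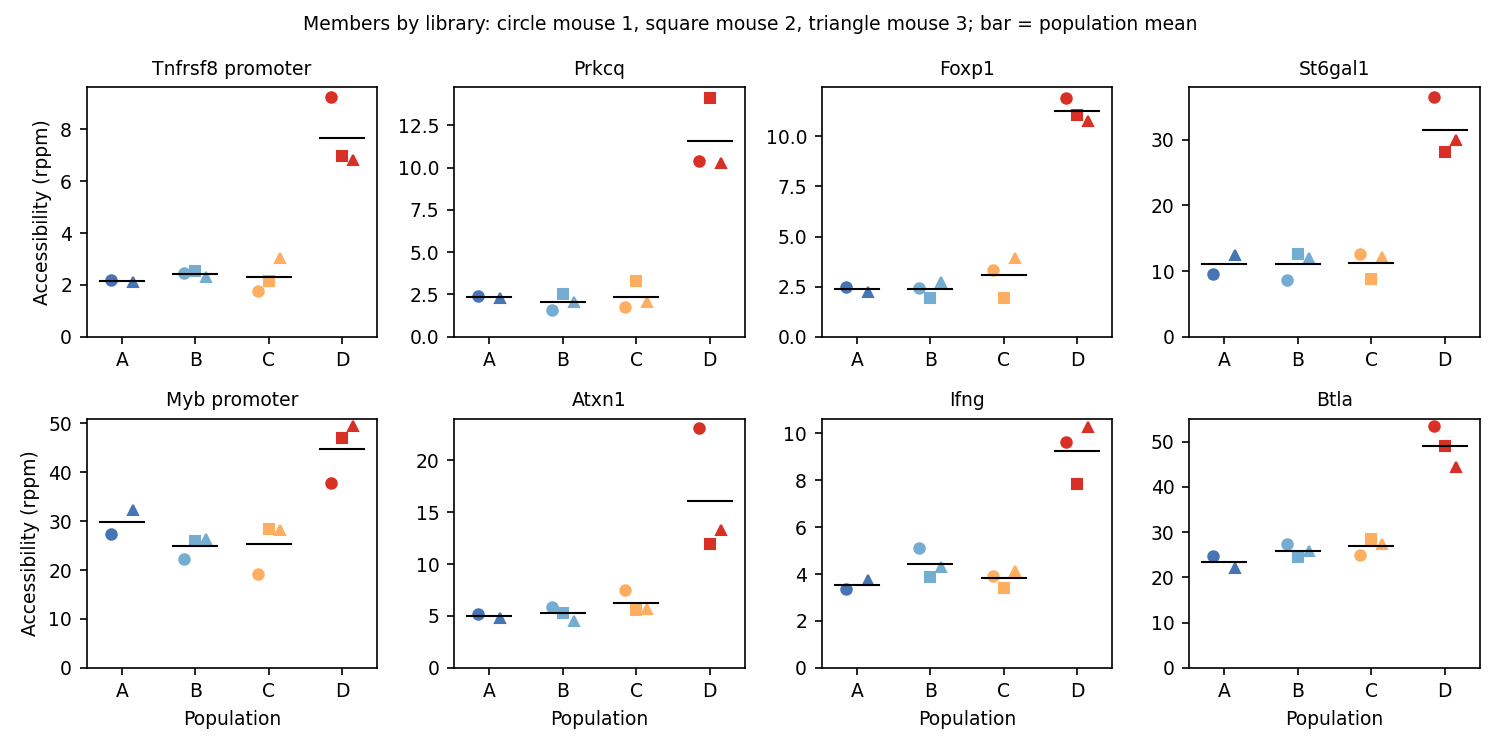
Accessibility in rppm at 8 members, 1 point per library with its mouse given by the symbol, and the population mean as a bar. Each D library lies above each library of A, B and C in all 8 panels, and the Atxn1 panel shows D of mouse 1 (23.1 rppm) above mice 2 and 3 (11.9 and 13.3).

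Population B gives a level that the rule did not read. On the log2 scale B lay within 0.3 of the mean of A and C at 600 of 630 members (95.2%), and at 98.4% of the other peaks with at least 2 rppm in A. It was above that mean at 394 members (62.5%, against 54.1% of the others), with a median difference of 0.05. No member had a B mean above its D mean. Each D library was above each B library at 554 members (87.9%), against 9.70% of the other peaks with at least 2 rppm in A, and above all 8 libraries of A, B and C at 531 (84.3%, against 5.20%). D was used by the rule, so these shares are in part set by it.

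In B against A limma called 0 members higher and 0 lower, and over all peaks it also called 0% in each direction, so that nothing about the members is read from this contrast. With the mouse as a block, limma called 27 of all peaks and 0 members, and 29 members were higher and 6 lower at an unadjusted p below 0.05. In the fit without the block, at an unadjusted p below 0.05 8 members were higher and 3 lower. edgeR called 0 members (17 at an unadjusted p below 0.05) and DESeq2 0 (1). In C against B limma called 0 members, against a background of 0.0022% higher and 0% lower, with 8 members higher and 12 lower at an unadjusted p below 0.05. edgeR and DESeq2 called 0 members in C against B, with 23 and 10 at an unadjusted p below 0.05, and 67 and 86 of all peaks. In D against B limma called 453 members higher and 0 lower (71.9%), where 7.16% of all peaks were called higher and 3.84% lower. The median log2 D minus B of the members was 0.74, and that of all peaks -0.03. This count too fell without mouse 2, to 226, where the calls over all peaks fell from 5006 to 2193. Both counts fell further without mouse 3, which leaves 1 library of A. The median log2 D minus B was then 0.76 for the members and -0.05 for all peaks.

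**Figure D3:**
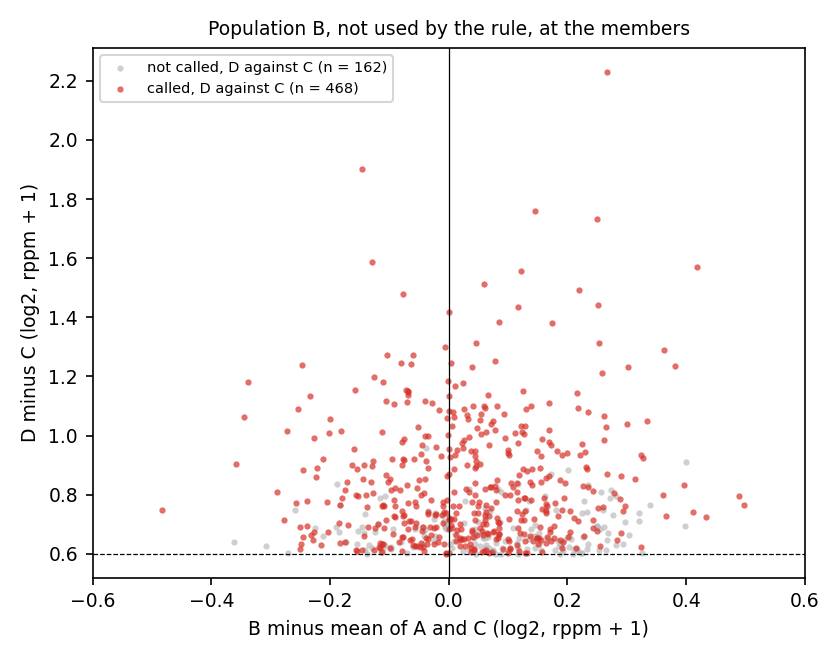
Each point is 1 member: the log2 difference of B from the mean of A and C (horizontal) against the log2 difference D minus C that the rule used (vertical, dashed line at 0.6). Of the 630 members, 600 lie within 0.3 of 0 on the horizontal axis, 24 at least 0.3 above and 6 at least 0.3 below.

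B was at least 0.3 above the mean of A and C at 24 members, of which the 5 with the largest difference are described. The peak 1.68 kb from Eomes, a T-box factor of cytotoxic and memory cells (chr9:118476318-118476707), had 2.28 and 3.42 rppm in A, 4.57, 5.15 and 3.55 in B, 2.16, 3.39 and 3.06 in C and 5.39, 6.11 and 5.67 in D (log2 D minus B 0.32, limma adjusted p = 0.349). All B libraries lay between the C and the D libraries. In intron 1 of Colq, a collagen-like anchor of acetylcholinesterase, the means were 1.96 rppm in C, 3.27 in B and 4.04 in D. In intron 3 of Etv6, an ETS family repressor, they were 7.47, 10.8 and 13.2, and near Adgre5, the adhesion receptor CD97, 2.83, 4.20 and 5.32. limma did not call D against B at Colq (adjusted p = 0.591), Etv6 (adjusted p = 0.279) or Adgre5 (adjusted p = 0.466). At the Prps1l1 peak named above, which also belongs here, it did (log2 1.04, limma adjusted p = 0.00192).

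B was at least 0.3 below at 6 members. In intron 2 of Fyn, a Src family kinase of T cell receptor signalling (chr10:39430265-39430753), the libraries stood at 3.15 and 2.31 rppm in A, 1.89, 2.17 and 2.27 in B, 2.35, 3.29 and 4.14 in C and 5.78, 7.13 and 8.03 in D. B was the lowest population, and D exceeded it by 1.35 (limma adjusted p = 0.000266). In intron 1 of Rac1, a small GTPase of the cytoskeleton, the means were 5.42 rppm in A, 3.97 in B, 5.21 in C and 11.97 in D. Near Halr1, a long noncoding RNA of the HoxA locus, they were 3.62, 2.39, 3.86 and 7.18. Near Agbl1 the means were 2.06, 1.505, 2.28 and 6.44 rppm, and in intron 13 of Top2a, the topoisomerase of dividing cells, 2.61, 1.96, 3.00 and 5.23, where limma did not call D against C (adjusted p = 0.0657).

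The same measure in mice that did not choose the peaks was read next. The rule was applied to the libraries of 2 mice, and the peaks it took were read in the mouse left out. Without mouse 1 it took 534 peaks, without mouse 2 749, and without mouse 3 1020. In the mouse left out, D was above C at 504 of 534 peaks (94.4%) in mouse 1, 712 of 749 (95.1%) in mouse 2 and 944 of 1020 (92.5%) in mouse 3. Over all peaks with at least 2 rppm in A the shares in those mice were 44.4%, 44.9% and 42.7%. The median D minus C was 0.70, 0.56 and 0.53 on the log2 scale, against -0.05, -0.03 and -0.03. A difference of at least 0.6, the threshold of the rule, was met again at 59.0%, 43.9% and 41.3% of the peaks, against 6.03%, 3.58% and 2.58%. Peaks are not replicates, so no test was made.

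B of the mouse left out stood below D in the same way. D was above B at 95.7%, 93.9% and 94.2% of these peaks in mice 1, 2 and 3, with medians of 0.80, 0.59 and 0.64. Over all peaks with at least 2 rppm in A the shares were 41.8%, 45.6% and 46.3%. C minus B had medians of 0.07, 0.02 and 0.11.

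The step from A to C was also read in the mouse left out. In mouse 1 C was above A at 332 of 534 peaks (62.2%, against 46.9% of all peaks with at least 2 rppm in A), with a median of 0.11. In mouse 3 it was above A at 853 of 1020 (83.6%, against 55.6%), with a median of 0.27. The condition that C exceed A by less than 0.3 was met again at 67.0% of the peaks in mouse 1 and 54.1% in mouse 3, against 85.3% and 82.7% of all peaks with at least 2 rppm in A. B minus A had medians of 0.06 in mouse 1 and 0.14 in mouse 3, against 0.01 and 0.02 over all peaks with at least 2 rppm in A. Mouse 2 has no library of A.

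**Figure D4:**
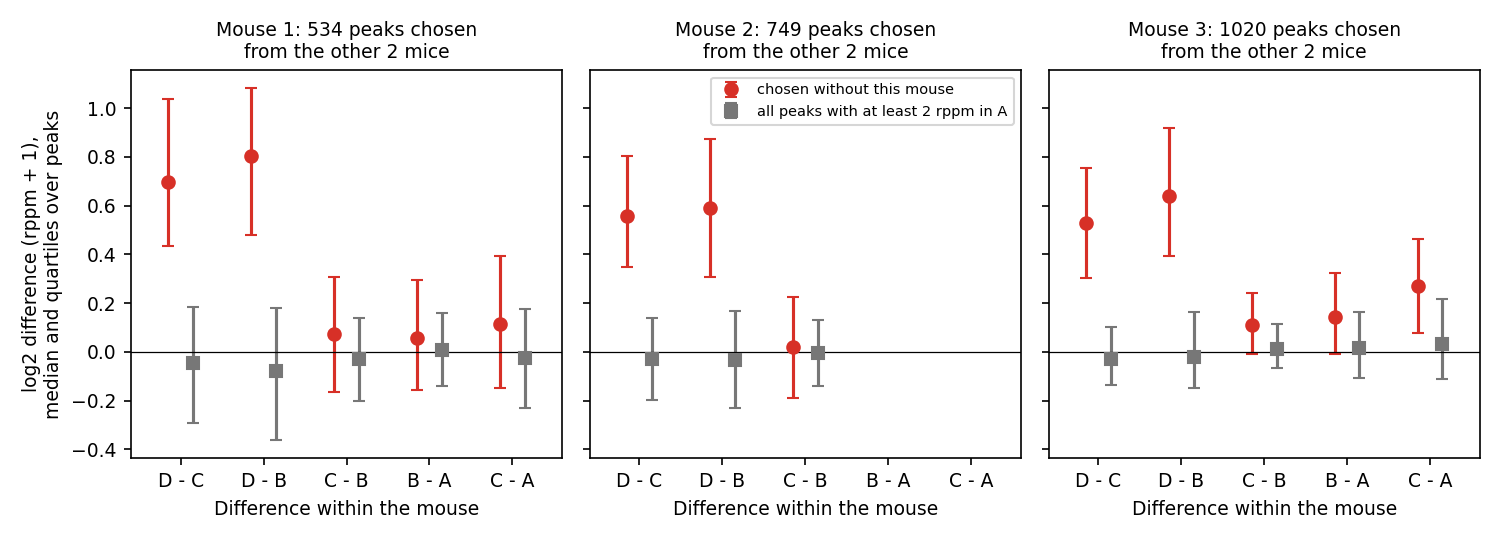
Log2 differences (rppm + 1) between populations within 1 mouse, as median and quartiles over peaks, at the peaks that the rule took from the other 2 mice (circles) and at all peaks with at least 2 rppm in A (squares). D minus C and D minus B lie at medians of 0.53 to 0.80 in the 3 mice, and C minus A at 0.11 in mouse 1 and 0.27 in mouse 3.

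With all mice in the rule, the members were spread over the mice as follows. D was above C in all 3 mice at 609 members (96.7%, against 17.7% of all peaks with at least 2 rppm in A) and in 2 mice at 21. It was above B in all 3 at 590 (93.65%, against 18.2%), in 2 at 38 and in 1 at 2. Means over these same mice chose the members, so these shares are in part set by the rule. Median D minus C over the members was 0.94 in mouse 1, 0.73 in mouse 2 and 0.68 in mouse 3. C minus A had a median of -0.10 in mouse 1 and 0.17 in mouse 3. Leaving out the C library of mouse 3 raised the number of peaks that met the rule to 1041, of which 579 were members.

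Members lay away from start sites. Of the 630, 42 (6.67%) were within 1 kb of one, against 27.7% of the other peaks with at least 2 rppm in A. Introns held 338 (53.7%, against 40.8%) and intergenic sequence 240 (38.1%, against 31.9%). The median distance to a start was 20.8 kb, against 9.03 kb, and 59 members (9.37%, against 5.66%) were over 100 kb away. Their median width was 650 bases, against 769. None of these comparisons was matched for level in A. Over 1 kb from a start were 159 of 166 members and 1425 of 1522 peaks at 2 to 3 rppm in A. From 3 to 5 rppm it was 197 of 215 and 7945 of 8623. From 5 to 10 rppm it was 152 of 165 and 10788 of 11932, so that members and peaks were close up to 10 rppm. From 10 to 20 rppm it was 63 of 66 and 6880 of 8247, and at 20 rppm or more 17 of 18 and 5134 of 13999.

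Peaks of neighbouring patterns had similar positions and different courses. For 944 peaks under 2 rppm in A that rose from C to D by at least 0.6, 4.66% were within 1 kb of a start and the median distance was 28.8 kb. Their median means were 1.05 rppm in A, 1.45 in B, 2.02 in C and 5.62 in D, a rise at each step, where the members had 4.17, 4.36, 4.22 and 8.43. For 326 peaks with at least 2 rppm in A that rose from A to C by at least 0.6 and by less than 0.3 from C to D, 5.52% were within 1 kb, and the medians were 3.59, 4.98, 6.67 and 6.82 rppm. These sets were chosen by the same values, so their courses are descriptions.

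**Figure D5:**
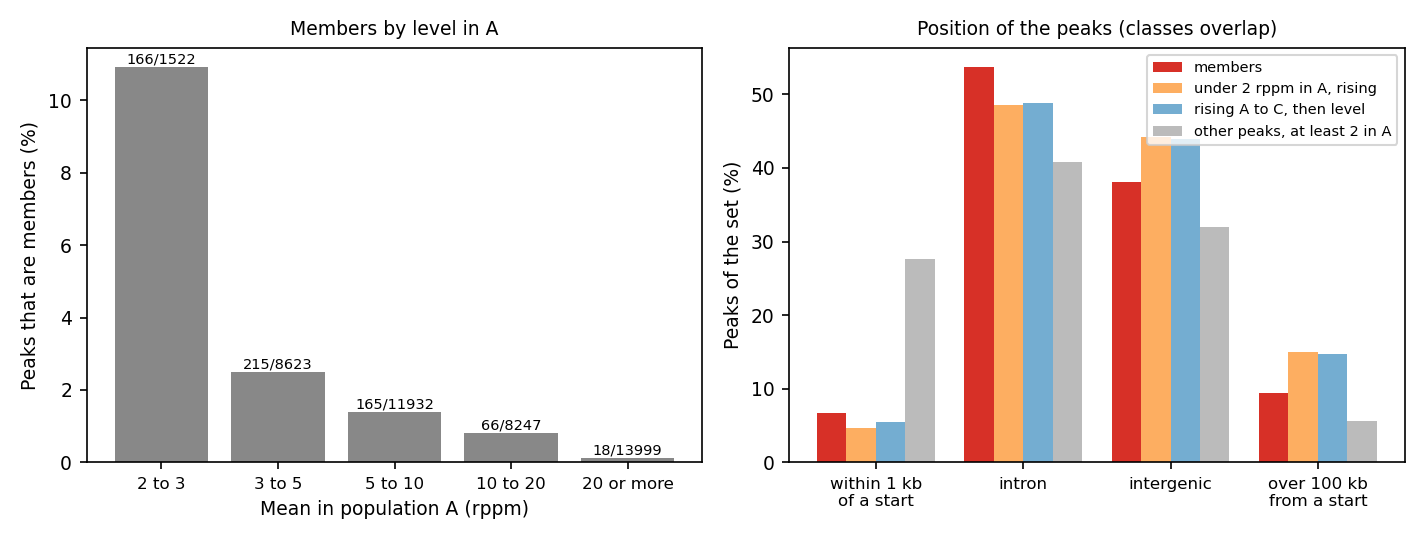
Left, the share of peaks in each class of mean level in A (rppm) that are members, with members and peaks above each bar, falling from 10.9% to 0.129%. Right, the share of each set within 1 kb of a start site, in introns, in intergenic sequence and over 100 kb from a start; members stand at 6.67%, 53.7%, 38.1% and 9.37%.

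The members were assigned to 566 genes, 516 of them with 1 member, 41 with 2 and 9 with 3 or more. Genes with members had a median of 6 listed peaks, against 2 for all genes with a peak. At 174 of the 566 genes (30.7%) another peak was called higher in D against C, and at 55 (9.72%) a peak was called lower. The shares over other genes were not worked out, so nothing is read from these gene counts. Of the 4229 other peaks of these genes, 6.81% were called higher in D against C and 1.77% lower, against 3.19% and 1.48% of 40634 peaks of genes without a member. The median D minus C was near 0 in both, at -0.01 and -0.04. The listed peaks next to a member had a median D minus C of 0.03, against -0.03 for all peaks, and 55.0% of these 1214 neighbours were above 0, against 43.7% of all peaks. Within 10 kb of another member lay 26 members, and within 100 kb 154, without a background from other peaks.

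Runs of members with gaps of at most 100 kb show where several sites rose in 1 neighbourhood. The Foxp1 run (chr6:98992651-99275042) held 5 members of 39 listed peaks, all in introns and all called in D against C. After the peak named above, the largest rises there were in intron 2, at 5.55 and 6.14 rppm in A, 6.01, 5.95 and 6.34 in B, 4.32, 6.79 and 7.29 in C and 19.3, 12.7 and 13.5 in D. A further peak of intron 2 went from 2.83 rppm in C to 7.21 in D. The remaining pair, in introns 8 and 4, went from 9.69 to 16.4 and from 2.36 to 5.11. Foxp1 had 83 listed peaks in all, and besides the members 3 were called higher and 3 lower in D against C.

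The Atxn1 run (chr13:45850332-45925063) held 5 members of 11 peaks. Atxn1 encodes ataxin-1, a chromatin-binding corepressor. The largest rise there, annotated as 5′ UTR of exon 3 (chr13:45852215-45852669), stood at 5.22 and 4.83 rppm in A, 5.90, 5.26 and 4.55 in B, 7.46, 5.55 and 5.65 in C and 23.1, 11.9 and 13.3 in D. D of mouse 1, the shallowest library, was the highest of D here. The other 4 had C means of 1.59 to 16.3 rppm and D means of 4.23 to 25.9, and limma called all 5 in D against C.

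Between Myb and Hbs1l (chr10:21160625-21287999) lay 4 members of 18 listed peaks, and all 4 were called in D against C. They were the Myb promoter and Hbs1l peaks given above and a pair assigned to a predicted gene between them. The latter went from 1.77 rppm in C to 5.27 in D, and from 3.86 to 15.2. The Myb promoter, whose level in C was 25.3 rppm, had the smallest log2 rise of the 4 (0.81, SE 0.15, limma adjusted p = 0.00573).

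At St6gal1, which encodes the enzyme that adds alpha-2,6-linked sialic acid to glycoproteins, 4 of 24 listed peaks were members, all between the ends of chr16:23228415-23290155. The peak in intron 1, 2.67 kb from the start, stood at 9.57 and 12.5 rppm in A, 8.69, 12.6 and 12.1 in B, 12.6, 8.84 and 12.2 in C and 36.6, 28.2 and 29.9 in D. A, B and C overlapped fully, and D was separate (log2 D minus C 1.42, SE 0.17, limma adjusted p = 0.000215). The 2 other intron members rose from 18.9 to 32.7 and from 4.93 to 11.4 rppm. The promoter member had 4.55 rppm in C and 7.91 in D and was not called (limma adjusted p = 0.0659).

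Near Tnfrsf8, 3 of 9 listed peaks were members, and a member near Tnfrsf1b, the receptor TNFR2, lay in the same run (8.43 rppm in C, 17.3 in D). Besides the promoter, the Tnfrsf8 members were 4.36 kb upstream (4.10 to 10.98 rppm) and in intron 2 (6.17 to 10.9). All 3 were called in D against C. An intron member at Tnfsf8, which encodes the CD30 ligand, had 1.91 rppm in C and 3.67 in D and was not called (limma adjusted p = 0.233). Tlk1, a kinase of chromatin assembly, had 3 members of 13 listed peaks, 19.5 kb upstream (20.1 to 32.7 rppm), 94.4 kb upstream (3.66 to 8.86 rppm) and in intron 1 (4.91 and 8.03 rppm, limma adjusted p = 0.133 for the last).

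Genes of T cell signalling, identity and differentiation held few members each, and the shares are set beside 1.42% of all peaks with at least 2 rppm in A. Effector and memory genes had 5 members of 81 such peaks (6.17%). The peak 28.1 kb from Ifng, which encodes interferon gamma (chr10:118468741-118469543), stood at 3.37 and 3.73 rppm in A, 5.12, 3.89 and 4.31 in B, 3.92, 3.39 and 4.11 in C and 9.63, 7.85 and 10.3 in D. Intron 2 of Runx2, a Runx family factor, went from 3.73 to 9.19 rppm, and a peak 46.9 kb from Cd44, the gate marker, from 5.49 to 12.7. limma called all 5 members of this list in D against C.

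Follicular helper genes had 6 members of 123 (4.88%), 5 of them called. A peak 27.8 kb from Pou2af1, a coactivator of octamer factors, went from 9.59 rppm in C to 19.3 in D, and 1 in its 3′ UTR from 9.28 to 15.3. A peak 25.6 kb from Batf, an AP-1 family factor, went from 10.8 to 18.2. AP-1, NFAT and NF-kB genes, which include Batf, had 6 of 149 (4.03%), 5 called. The largest rise among them was 11.6 kb from Fosb, a Fos family AP-1 subunit, at 3.92 and 2.72 rppm in A, 2.56, 2.86 and 3.07 in B, 3.14, 2.78 and 3.23 in C and 10.0, 6.54 and 8.30 in D. Nfatc1, whose product NFAT2 responds to calcium, had an intron 2 member at 2.19 and 4.43 rppm.

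Regulatory T cell genes had 3 members of 76 (3.95%), 2 of them called. Intron 1 of Il2ra, the interleukin 2 receptor alpha chain, rose from 4.90 to 9.93 rppm, and intron 3 of Ikzf2, which encodes Helios, from 2.22 to 4.44. The Ctla4 member in intron 1 (chr1:60910783-60911200) stood at 11.0 and 7.55 rppm in A, 6.01, 10.3 and 7.82 in B, 8.24, 11.6 and 8.26 in C and 13.1, 18.03 and 16.1 in D. Ctla4 encodes an inhibitory receptor, and its libraries were spread within populations (limma adjusted p = 0.0633 in D against C). Il2ra is also among the T cell receptor-induced genes, which had 3 of 167 (1.8%). The other 2 lay 2.72 and 1.91 kb from Dusp2, a MAP kinase phosphatase, and rose from 5.01 to 10.6 and from 21.3 to 33.4 rppm.

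Core identity genes had 8 members of 320 (2.5%), 7 called, among them intron 6 of Ets1 (8.58 to 18.7 rppm), a peak 301 kb from Gata3 (2.92 to 6.82) and intron 2 of Bcl11b (5.26 to 11.0). These encode transcription factors of the T cell lineage. Naive homing and quiescence genes had 11 of 503 (2.19%), all called, 5 of them at Foxp1 and the others at Cxcr4, Foxo1, Klf2, Lef1 and S1pr1. Of these, chosen after its values were seen, a peak 175 kb from Cxcr4, a chemokine receptor of lymphocyte homing, had mean levels of 25.9 rppm in A, 29.5 in B, 31.5 in C and 59.3 in D. Over all their peaks with at least 2 rppm in A, limma called 22 higher and 18 lower in D against C. Proximal receptor signalling genes had 3 of 257 (1.17%), called at all 3. Besides the Prkcq peak named above, they were in intron 1 of Prkcq (15.5 to 24.3 rppm) and intron 1 of Tespa1, an adaptor of thymocyte selection (1.71 to 4.43 rppm).

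Cytokine receptor and signalling genes had 4 of 260 (1.54%), 2 called. A peak 5.88 kb from Ifnar2, a type I interferon receptor chain, rose from 8.84 to 16.3 rppm, and intron 1 of Il21r from 2.36 to 4.97. At Il21r C was the lowest population, with means of 3.18 rppm in A and 3.13 in B. D of mouse 1 there (3.47) lay below A of mouse 3 (3.52) and B of mouse 2 (3.89). Intron 1 of Jak1 had 3.84 rppm in C and 6.60 in D and was not called (limma adjusted p = 0.0779), though each D library was above all of A, B and C. Negative regulators of activation had 3 of 321 (0.935%), 2 called. Besides Ctla4 they were Rasa2, which restrains Ras (2.93 to 5.19 rppm), and Btla, an inhibitory receptor. The Btla peak, in its 3′ UTR (chr16:45251560-45252703), stood at 24.7 and 22.0 rppm in A, 27.4, 24.5 and 25.8 in B, 24.9, 28.5 and 27.4 in C and 53.5, 49.0 and 44.5 in D. Its D libraries were clearly apart (log2 D minus C 0.84, SE 0.10, limma adjusted p = 0.000259). B cell markers had 0 members of 7 peaks, myeloid markers 0 of 16, and CD8 T and NK markers 1 of 27, the Eomes peak. Il2ra, Ctla4, Batf and Eomes each stand in 2 lists.

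The rule's thresholds cut through a continuum. Just inside the level in A lay a member at Hsdl2 with 2.00 rppm and the Tnfsf8 member with 2.02, and just outside peaks near Gata3 and Marcksl1 with 1.9975 each. Just inside the rise lay members at Lrrfip1 and Sntb1 with 0.60 each, and just outside peaks at Syt14 (0.599) and Elovl5 (0.599). Just inside the limit on C over A lay members at Cfap44 and Hymai, and just outside peaks at Secisbp2 and Celf5, all at 0.30 when rounded. With a rise of at least 1 in place of 0.6, 97 peaks met the rule, and with at least 5 rppm in A 249.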

How the data were processed

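ATAC-seq was done on 11 libraries of 4 sorted populations from 3 mice, after tagmentation for 1 h at 37 °C. The authors deposited 1 table of peaks (mm10) with RPM values (rppm per the file headers) for each library, an annotation and a nearest gene. A peak may regulate another gene than the one it is assigned to. Intron numbers come from the annotation, which can refer to another transcript or gene than the nearest start. Upstream of the nearest start lay the intron peaks at Map3k20, Txk and Kat2b (6.23 kb) and that of the largest rise at Foxp1 (22.4 kb). Bowtie and MACS2 are named in the submitters' processing notes. The total used for scaling, read filters and pooling for peak calling are not given in the sources used here. All values of a library were whole multiples of 1 step (100% within 0.0006 rppm), which gave reads and totals.

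limma 3.58.1 (R 4.3.3) was run on log2 of rppm + 1 over the 11 libraries, with a mean for each population, a variance trend and two-sided tests. Benjamini-Hochberg adjustment covered 45508 peaks, with a threshold of 0.05. Log2 differences with an SE or a p are limma estimates; those of the rule compare population means. edgeR 4.0.16 and DESeq2 1.42.0 were run on the recovered reads, and edgeR called 2684 peaks higher and 722 lower in D against C. The limma step was also run on simulated counts that held no mouse effect, unlike these data, so nothing about the calls is read from it. Mouse numbers mark shared animals: deviations from population means correlated at 0.18 to 0.56 in 15 pairs of 1 mouse (median 0.36) and at -0.43 to 0.20 in 30 pairs of different mice. Alternatives changed the pseudocount, thresholds, scaling, test, mouse block and libraries.

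The members, gene lists and tests were chosen with earlier results of these data known. Named members were the 10 largest rises at genes with a proper symbol (leaving out predicted genes and microRNA genes, 2 of which rank among the 10 largest of all), the 5 highest in A, the 5 with B furthest above and below A and C, up to 3 per gene list, the members of the 5 genes with most members, and the peaks next to each threshold. Runs and promoters were described after their values were seen. Sequences are from RefSeq (GRCm38.p6). The result for 1 marker gene is not reported here.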

Additional observations from a re-analysis of the deposited data

How the results depend on the processing

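The number of peaks meeting the rule was 630, and 262 with a pseudocount of 5 rppm, 249 with at least 5 rppm in A, 97 with a rise of at least 1, 247 with C not above A and 1020 without mouse 3. Leaving out single libraries gave 622 to 1041, the latter without population C replicate 3. Sets of similar size differed in content. Without population C replicate 1, 637 peaks met the rule, 417 of them members. Without mouse 1 it was 534 and 336, with medians of the libraries 671 and 457, and with a pseudocount of 5 rppm 262 and 156. Median-of-ratios scaling kept 629 members and a pseudocount of 0.25 rppm 576. Members called by limma in D against C were 468, and 235 of the 343 tested with a minimum mean of 5 rppm, 129 without mouse 2 and 36 without mouse 3. Leaving out single libraries gave 299 to 442, with 306 without population C replicate 1, 299 without C replicate 2 and 302 without D replicate 3. In D against A they were 445, and 251 of 343 with the minimum mean and 32 without mouse 3. Leaving out single libraries gave 214 to 468, with 255 without A replicate 1 and 214 without A replicate 3, where the single A library left is taken to have the spread of the other populations. In D against B they were 453, and 242 of 343 with the minimum mean, 226 without mouse 2, 85 without mouse 3 and 341 to 470 without single libraries. With the mouse as replicate block 594 members were called in D against C, 519 in D against A, 527 in D against B and 1, lower, in C against A (0 without the block). Over all peaks the block raised the calls too, from 2730 to 5166 in D against C, 5658 to 9668 in D against A, 5006 to 8361 in D against B and 384 to 1590 in C against A. The cause of these changes was not tested beyond the fewer peaks or libraries by construction. Of 72 named members, 62 were called in D against C, 14 of them under each of the 22 alternatives that tested them (the minimum mean left some untested), and 0 changed direction. Motif shares in other windows, in whole peaks or in members away from start sites were not run, since they need sequence not used here. Labels give separate mice but no separate days, and at 10 rppm the shallowest library holds 26 reads.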
